A study of Mus musculus with 16 samples.

Results

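The genes described here encode the proteins of the cytosolic ribosome, measured by RNA-seq in the hypothalamus of female C57BL/6 mice. Members were taken by symbol: Rpl or Rps followed by a number and an optional a, l or x, together with Rplp0, Rplp1, Rplp2 and Rpsa, and without symbols marked as pseudogenes. This gave 74 genes, 46 of the large and 28 of the small ribosomal subunit, present in both deposited tables. One table holds 15983 genes in OLZ+MINO, OLZ and CTRL mice, and the other holds 16005 genes in MINO and CTRL mice. Rps12, Rps13, Rps27, Rpl3l, Rpl10l and Rpl39l were not analysed here.

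There were 4 mice in each group, and every mouse ate a diet in which fat supplied 45 kcal% for 12 weeks, starting at 10 weeks of age. OLZ+MINO mice received the antipsychotic olanzapine compounded into that diet at 54 mg/kg and the tetracycline antibiotic minocycline in the drinking water at 0.6 mg/ml. OLZ mice received only olanzapine and MINO mice only minocycline, at the same doses. CTRL mice received neither, so no group was on normal chow during treatment. Each library is named below by the number of its mouse.

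Each ribosome carries a set of small basic proteins on ribosomal RNA, and the small subunit reads the mRNA while the large subunit forms the peptide bond. Cells make these proteins in matched amounts, and their mRNAs are abundant. In mammals most of them begin with a C at the 5′ end followed by a run of pyrimidines, the terminal oligopyrimidine (TOP) tract, through which the mTOR kinase and the LARP1 protein adjust their translation and stability. Ribosomal protein genes have also left many intronless copies in the mouse genome, called processed pseudogenes, to which reads of the parent gene can be assigned.

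Start sites are shown because the TOP tract is the sequence feature these genes are known for. Of the 74 genes, 54 matched an entry of the RefSeq promoter table (build GRCm38.p6). Each line gives 10 bases before and 20 bases from an annotated start, 5′ to 3′ on the gene's strand, with the longest run of a C followed by at least 4 pyrimidines in capitals, or the run that begins at the start itself where there is one. The first 4 genes fell in OLZ+MINO mice with no overlap between groups, as described below, Rpl28 is the member that rose there, Rps4x fell and has no such run in its window, and Rps6 encodes the substrate of S6 kinase.
Rpl14 (chr9:120571507-120571536, plus strand): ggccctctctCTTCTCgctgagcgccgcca
Rps26 (chr10:128626487-128626516, minus strand): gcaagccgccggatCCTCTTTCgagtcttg
Rps10 (chr17:27635225-27635254, minus strand): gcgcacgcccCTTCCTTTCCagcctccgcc
Rps18 (chr17:33955646-33955675, minus strand): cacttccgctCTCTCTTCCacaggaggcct
Rpl28 (chr7:4792955-4792984, plus strand): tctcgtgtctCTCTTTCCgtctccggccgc
Rps4x (chrX:102189372-102189401, minus strand): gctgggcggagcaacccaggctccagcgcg
Rps6 (chr4:86857348-86857377, minus strand): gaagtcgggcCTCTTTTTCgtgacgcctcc

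Such a run began exactly at an annotated start in 12 of the 54 members (22.2%) and in 813 of all 27025 genes of the promoter table (3.01%). Somewhere in the 30-base window it was found in 35 members (64.8%), against 10698 of all genes (39.6%). The motif CCGGAAG, the core bound by ETS factors such as GABP, occurred on either strand of the 300 bases around the start in 24 members (44.4%) and in 2683 of all genes (9.93%). An absent run says only that these letters were not in that window.

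The deposited values are whole numbers that the authors scaled per library and are called scaled counts here. Library totals lay between 8435016 and 9279227 in the table of OLZ+MINO, OLZ and CTRL and between 8783427 and 9447616 in the table of MINO and CTRL, and because of the scaling the depth of each library is unknown. Tests were made within a table only. Differences among the libraries bear on what follows. The summed scaled count of 10 hypothalamic marker genes, among them Pmch, Oxt, Avp and Pomc, was 824 in OLZ+MINO mouse 48 and 3548 in OLZ+MINO mouse 40, but between 5728 and 9756 in the other 10 libraries of that table. The mitochondrial ribosomal RNA mt-Rnr2 took 8.75 to 9.43% of the total in OLZ+MINO mice, 6.18 to 6.94% in OLZ mice and 5.43 to 6.6% in CTRL mice, and 7.93 to 9.93% in MINO mice. The row named Rpl24 carries the Ensembl identifier that GENCODE assigns to Zbtb11, and a row written RPL24 carries that of the ribosomal protein gene. The first was counted as the member, by the rule, and the second is given beside it.

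The 74 genes together made up less than 1% of every library. They summed to 0.704, 0.678, 0.693 and 0.6% of the scaled counts in OLZ+MINO mice 37, 40, 47 and 48. In OLZ mice 13, 14, 17 and 19 they summed to 0.863, 0.772, 0.83 and 0.751%, and in CTRL mice 3, 4, 5 and 11 to 0.722, 0.819, 0.688 and 0.695%. Every OLZ library lay above every OLZ+MINO library, while CTRL mouse 4 lay within the OLZ range and the other CTRL libraries below it.

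In the second table the sums were 0.67, 0.726, 0.807 and 0.783% in MINO mice 26, 31, 35 and 36, against 0.722, 0.818, 0.688 and 0.695% in the CTRL mice, and these groups overlapped. The means were 0.669 ± 0.047% in OLZ+MINO, 0.804 ± 0.052% in OLZ and 0.731 ± 0.06% in CTRL mice, and 0.746 ± 0.061% in MINO mice (SD, n = 4 each). With mitochondrial and ribosomal RNA genes left out of the total, the sums ran from 0.7 to 0.82% in OLZ+MINO mice and from 0.843 to 0.962% in OLZ mice, so these groups still did not overlap.

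**Figure D1:**
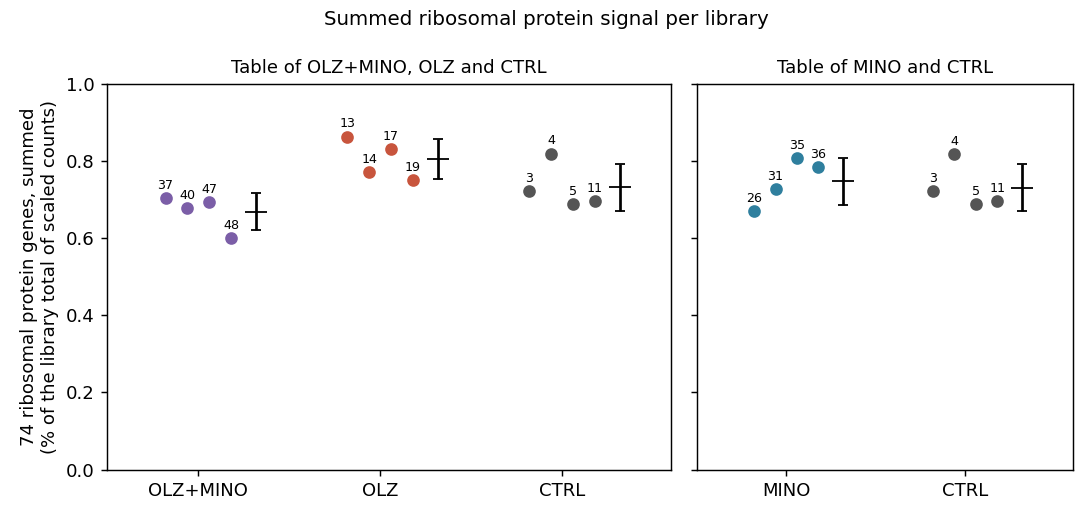
Summed scaled count of the 74 ribosomal protein genes in each library, as percent of the library total (vertical axis), by group and table. Points are mice, numbered, and bars show mean ± SD (n = 4). The 4 OLZ libraries sit between 0.751 and 0.863%, above the 4 OLZ+MINO libraries at 0.6 to 0.704%.

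The highest and lowest values of the members gathered in a few libraries. OLZ mouse 13 held the highest value of 27 of the 74 genes among the 12 libraries, CTRL mouse 4 of 22 and OLZ mouse 17 of 17. OLZ+MINO mouse 48, the library with the lowest hypothalamic marker sum, held the lowest value of 26 genes, and CTRL mouse 5 of 19. OLZ mouse 13 also had the lowest library total (8435016) and OLZ+MINO mouse 48 the highest (9279227) among these libraries. No share over all genes is given beside these counts, and whether the members varied together was not tested. Relative to the CTRL mean of each gene, the median member stood at -0.18 (log2) in OLZ+MINO mouse 48 and at 0.20 in OLZ mouse 13, with the CTRL libraries themselves between -0.11 and 0.16.

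Levels can be compared between genes only per transcript length. Dividing the median over the CTRL mice by the median length of the gene's annotated transcripts, the median member had 1106 scaled counts per kb, with quartiles of 423.6 and 1631. Rpl3, a protein next to the peptidyl transferase centre, was highest at 4593 per kb, followed by Rpl13a at 4475, Rps24 at 2937, the stalk protein Rplp1 at 2607 and Rpl41 at 2443. The lowest members were Rps29 at 38.5, Rpl12 at 64.0, Rpl27 at 73.3, Rps27l at 95.2 and Rps6 at 114.5 per kb. Rps27l is a paralog of Rps27 known as a p53 target. For Rps29 and Rps6 pseudogene rows held most of the related signal: Rps29 had 18, 0, 12 and 19 scaled counts in CTRL mice 3, 4, 5 and 11, where its pseudogene Gm14303 had 646, 682, 569 and 607. Rpl27 had 38, 79, 52 and 36 in the same mice, where its pseudogene Rpl27-ps3 had 19, 44, 85 and 93. The order depends on the length used. With the longest transcript Rpl3 stayed highest at 2774 per kb, Rps24 dropped out of the top 5 at 956 with Rpl19 entering at 2304, Rpl13a stood at 2116, and Rpl5 at 86.3 took the place of Rps6 among the lowest 5. The Rpl5 row had 115 to 206 scaled counts in CTRL mice, where its pseudogene rows together had 1308 to 1436.

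The first comparison asked what olanzapine did without minocycline. Most members were slightly higher in OLZ than in CTRL mice: 61 of 74 log2 fold changes were above 0, with a median of 0.10 (range -0.32 to 1.16), against a median of 0.00 over all genes. At an adjusted p under 0.3 (limma on log2 of the scaled count plus 1, Benjamini-Hochberg over all genes), 3 members rose and none fell, while 1.82% of all genes rose and 1.82% fell. Those 3 were Rpl21, Rpl23a and Rpl14, all of the large subunit. Without adjustment, 10 members were higher and 0 lower at p under 0.05 (921 and 907 of all genes), and none passed an adjusted p of 0.05. OLZ and CTRL libraries did not overlap for 4 members, all higher in OLZ (the same 3 among them), against 3.64% of all genes.

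Rpl21 had 1576, 1323, 1410 and 1472 scaled counts in OLZ mice 13, 14, 17 and 19, against 1240, 1093, 1097 and 1264 in CTRL mice 3, 4, 5 and 11. All OLZ libraries lay above all CTRL libraries, and the log2 fold change was 0.30 ± 0.08 (SE, limma adjusted p = 0.18). Rpl23a, the large-subunit protein that docks the signal recognition particle, had 1377, 1340, 1297 and 1333 scaled counts in OLZ mice and 1099, 1264, 1181 and 1054 in CTRL mice. Its log2 fold change was 0.22 ± 0.07 (limma adjusted p = 0.24). When the row of its pseudogene Rpl23a-ps3 was added, the values became 1377, 1340, 1320 and 1333 in OLZ mice and 1313, 1403, 1181 and 1270 in CTRL mice, the groups overlapped, and the log2 fold change was 0.06 ± 0.06 (limma adjusted p = 0.77). The summed rows of Rpl21 and its pseudogenes gave 0.18 ± 0.07 (limma adjusted p = 0.33).

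The 3 rises were close to the threshold. None remained when CTRL mouse 3, CTRL mouse 11, OLZ mouse 13, OLZ mouse 14 or OLZ mouse 19 was left out, and the number was 7 without CTRL mouse 4 and 6 without OLZ+MINO mouse 48. The share of all genes called in these fits is not given here, so the counts cannot be set against it. Cell markers moved with this comparison: 6 of 9 measured markers of tanycytes, cells of the third ventricle wall, rose. The summed scaled count of the tanycyte markers was 3669 to 5570 in OLZ mice, against 2102 to 2514 in CTRL mice. Of 8 astrocyte markers 2 rose (Gfap and Sox9) and 3 were below 0, with a median of 0.04. Of 10 hypothalamic markers 2 rose (Agrp and Pomc) and 4 were below 0, and their sums overlapped, at 6175 to 9308 in OLZ mice and 5728 to 9430 in CTRL mice. Of 9 neuron markers 2 fell (Nefl and Nefm), with a median of -0.21. No microglia, oligodendrocyte or meningeal marker passed the test. Microglia markers summed to 2210 to 2356 in OLZ mice and 1925 to 2160 in CTRL mice, and 8 of 9 were above 0. All 10 oligodendrocyte markers were below 0, with a median of -0.26, and their sums overlapped. All 8 meningeal and fibroblast markers were above 0, with a median of 0.74. They summed to 1136 and 1413 in OLZ mice 13 and 19, 412 and 297 in OLZ mice 14 and 17, and 343 to 456 in CTRL mice. The part of cell composition in the small shift of the ribosomal protein genes was not tested. In tissue RNA, fewer cells of a type and less RNA per cell cannot be told apart.

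The second comparison asked what minocycline did in olanzapine-fed mice, and it shares the OLZ libraries with the first. Ribosomal protein mRNAs of both subunits were lower in OLZ+MINO than in OLZ mice: 67 of 74 log2 fold changes were below 0, with a median of -0.18, against a median of 0.00 over all genes. At an adjusted p under 0.3, 25 members fell (33.8%) and 1 rose, while 6.36% of all genes fell and 5.99% rose. The median change of these 26 members was -0.26. Only Rpl14 passed an adjusted p of 0.05, at which 0.231% of all genes fell. OLZ+MINO libraries lay wholly below OLZ libraries for 16 members and wholly above for none, against 4.2% of all genes that were wholly below.

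**Figure D2:**
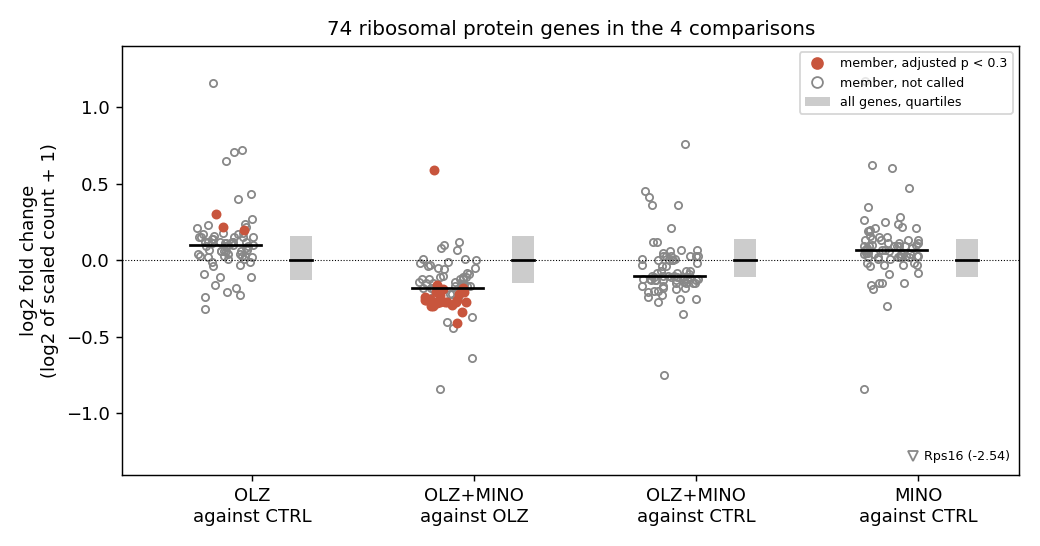
Log2 fold changes of the 74 ribosomal protein genes (circles, filled red where the limma adjusted p is under 0.3) in the 4 comparisons. Black lines mark the members' median and grey bars the quartiles and median of all genes. The members' medians are 0.10 for OLZ against CTRL, -0.18 for OLZ+MINO against OLZ, -0.10 for OLZ+MINO against CTRL and 0.07 for MINO against CTRL, and the triangle is Rps16 beyond the axis.

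All 28 small-subunit members were below 0, with a median of -0.22, and 12 of them fell. Of the 46 large-subunit members 39 were below 0, with a median of -0.16, and 13 fell. The members that fell included Rps2, Rps4x, Rps9, Rps10, Rps18, Rps19, Rps20, Rps25, Rps26 and Rpsa of the small subunit, and Rpl3, Rpl6, Rpl7a, Rpl8, Rpl9, Rpl14, Rpl21, Rpl23, Rpl23a, Rpl34, Rplp0, Rplp1 and Rplp2 of the large subunit. Their log2 fold changes lay between -0.41 (Rpl14) and -0.16 (Rpl23a).

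**Figure D3:**
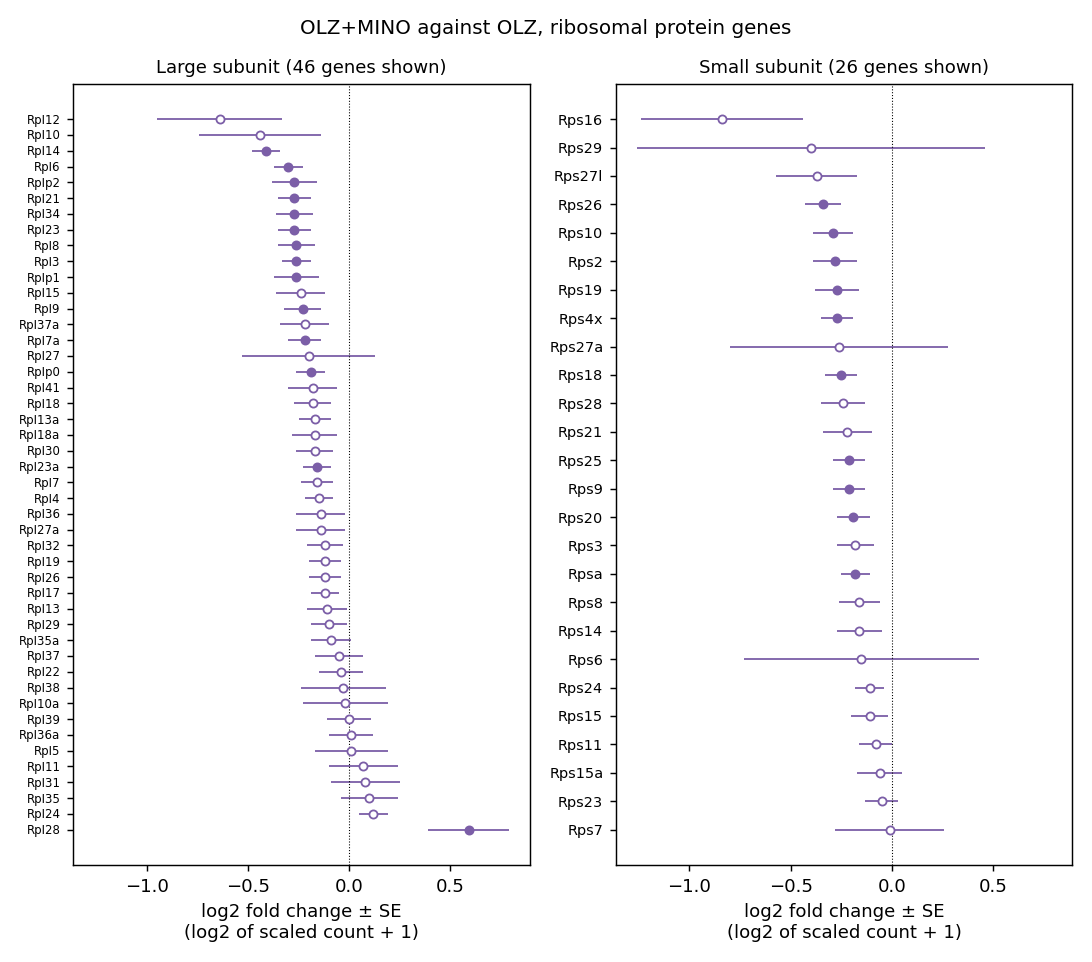
Log2 fold change ± SE of ribosomal protein genes in OLZ+MINO against OLZ mice (horizontal axis), by subunit, for all 46 large-subunit and 26 of the 28 small-subunit genes. Filled points are genes with a limma adjusted p under 0.3. All small-subunit genes shown lie below 0, and Rpl28 is the filled point above 0.

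Rpl14, a large-subunit protein, showed the clearest difference. It had 1284, 1106, 1097 and 1106 scaled counts in OLZ+MINO mice 37, 40, 47 and 48, against 1623, 1438, 1574 and 1450 in OLZ mice 13, 14, 17 and 19. In CTRL mice 3, 4, 5 and 11 it had 1290, 1328, 1317 and 1356. The 3 groups did not overlap at any point, with OLZ highest and OLZ+MINO lowest. The log2 fold change in OLZ+MINO against OLZ was -0.41 ± 0.07 (SE, limma adjusted p = 0.035), and in OLZ against CTRL it was 0.20 ± 0.07 (limma adjusted p = 0.3, under the threshold before rounding). No row of the tables was matched as a pseudogene of Rpl14, although 49.27% of its 50-base stretches also occur in the transcripts of 1 other gene.

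Rps26 lies at the mRNA exit channel of the small subunit, and mutations of its human gene cause Diamond-Blackfan anaemia. It had 492, 485, 431 and 485 scaled counts in OLZ+MINO mice, against 650, 613, 602 and 532 in OLZ mice and 544, 538, 435 and 562 in CTRL mice. The OLZ+MINO and OLZ libraries did not overlap (log2 fold change -0.34 ± 0.09, limma adjusted p = 0.13), whereas CTRL mice overlapped both. Rpl6 had 1857, 1885, 1749 and 1624 scaled counts in OLZ+MINO mice, against 2326, 2125, 2241 and 2053 in OLZ mice (-0.30 ± 0.07, limma adjusted p = 0.084), again without overlap.

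Rps10, also a Diamond-Blackfan anaemia gene in humans, had 533, 469, 497 and 466 scaled counts in OLZ+MINO mice and 692, 558, 610 and 545 in OLZ mice. Its groups did not overlap (-0.29 ± 0.10, limma adjusted p = 0.18). Rps2, at the mRNA entry, had 1392, 1159, 1381 and 1080 scaled counts in OLZ+MINO mice and 1760, 1413, 1564 and 1334 in OLZ mice, with OLZ mouse 19 inside the OLZ+MINO range (-0.28 ± 0.11, limma adjusted p = 0.27).

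**Figure D4:**
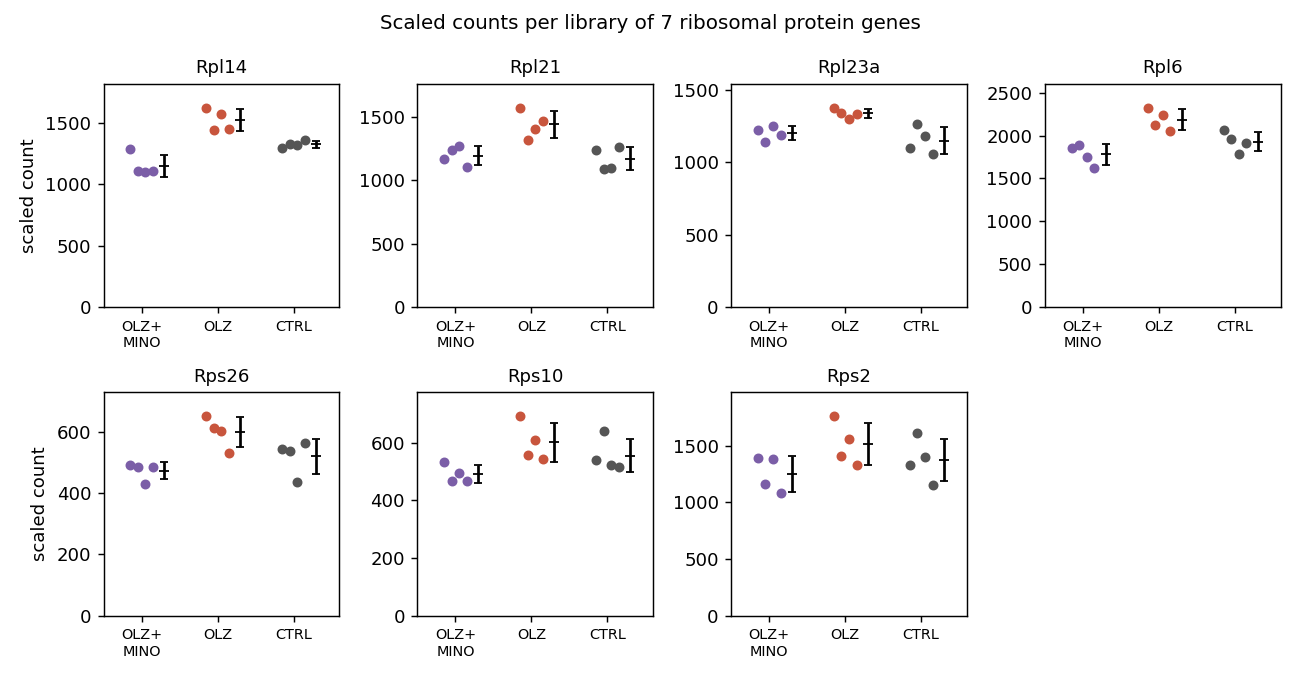
Scaled counts (vertical axes, from 0) of 7 ribosomal protein genes in each library of the OLZ+MINO, OLZ and CTRL groups. Points are mice and bars mean ± SD (n = 4). For Rpl14, Rpl21, Rpl23a, Rpl6, Rps26 and Rps10 every OLZ library lies above every OLZ+MINO library, and for Rps2 the groups overlap.

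The stalk of the large subunit, which recruits elongation factors, is built of Rplp0, Rplp1 and Rplp2, and all of them fell. Rplp0 had 890, 812, 897 and 852 scaled counts in OLZ+MINO mice and 1056, 901, 1026 and 950 in OLZ mice (-0.19 ± 0.07, limma adjusted p = 0.22). Rplp2 had 393, 294, 373 and 317 in OLZ+MINO mice and 427, 410, 432 and 381 in OLZ mice (-0.27 ± 0.11, limma adjusted p = 0.27). Rplp1 changed by -0.26 ± 0.11 (limma adjusted p = 0.3, likewise). The groups were apart for Rplp0 and overlapped for the other stalk genes.

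Rpsa, which is also known as the laminin receptor, had 1929, 1766, 1838 and 1689 scaled counts in OLZ+MINO mice and 2071, 1909, 2263 and 1970 in OLZ mice, and fell with overlap (-0.18 ± 0.07, limma adjusted p = 0.25). Rpl5 and Rpl11, which bind the 5S ribosomal RNA and restrain Mdm2, had log2 fold changes of 0.01 ± 0.18 and 0.07 ± 0.17 (limma adjusted p = 0.99 and 0.89). Rps27l had 49, 48, 50 and 47 scaled counts in OLZ+MINO mice and 64, 59, 65 and 64 in OLZ mice. These low values did not overlap, but the change did not pass the test (-0.37 ± 0.20, limma adjusted p = 0.4).

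Rpl28 was the member that went the other way. It had 185, 177, 288 and 223 scaled counts in OLZ+MINO mice 37, 40, 47 and 48, against 206, 103, 116 and 165 in OLZ mice 13, 14, 17 and 19, with overlap (0.59 ± 0.20, limma adjusted p = 0.19). Its processed pseudogene Rpl28-ps1 had 487, 406, 351 and 356 in OLZ+MINO mice and 437, 418, 496 and 421 in OLZ mice. The sum of both rows was 672, 583, 639 and 579 in OLZ+MINO mice and 643, 521, 612 and 586 in OLZ mice, and the log2 fold change of the sum was 0.07 ± 0.08 (limma adjusted p = 0.75). The rise of the Rpl28 row also failed the test without OLZ mouse 14 (0.44), OLZ mouse 17 (0.49) or OLZ+MINO mouse 48 (0.57), with adjusted p of 0.38, 0.32 and 0.36.

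Other members also changed when the rows of their copies were added. Pseudogene rows of 35 members are in the table of OLZ+MINO, OLZ and CTRL, and for 14 of them these rows exceeded the member's own row in the CTRL mean. Members with pseudogene rows had a median within-group coefficient of variation of 12.2%, against 9.18% for the other 39. Split by shared 50-base stretches, the median was 9.35% with under 25% shared, 11.2% with 25 to 50% and 9.88% with at least 50%, so it did not increase steadily with shared sequence. Rps16 had 106, 257, 250 and 108 scaled counts in OLZ+MINO mice and 289, 146, 470 and 383 in OLZ mice, a log2 fold change of -0.84 ± 0.40 that did not pass the test (limma adjusted p = 0.34). Together with Rps16-ps2 it had 580, 532, 565 and 400 in OLZ+MINO mice and 616, 613, 702 and 634 in OLZ mice, which did not overlap (-0.32 ± 0.14, limma adjusted p = 0.29).

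Rps6 had 161, 68, 97 and 46 scaled counts in OLZ+MINO mice and 87, 87, 144 and 69 in OLZ mice, while Rps6-ps4 had 1767, 1879, 1878 and 1824 in OLZ+MINO mice and 2142, 2051, 2074 and 2027 in OLZ mice. The sum of the 2 rows changed by -0.17 ± 0.06 (limma adjusted p = 0.21), where the Rps6 row alone changed by -0.15 ± 0.58. Rpl5 behaved likewise: its sum with Gm15500 and Gm15616 was 1300, 1474, 1427 and 1296 in OLZ+MINO mice and 1714, 1483, 1705 and 1457 in OLZ mice (-0.21 ± 0.07, limma adjusted p = 0.21). For Rpl10 the sum with its pseudogenes was 1305, 1305, 1352 and 1130 in OLZ+MINO mice and 1836, 1620, 1548 and 1569 in OLZ mice (-0.37 ± 0.08, limma adjusted p = 0.076), whereas the Rpl10 row alone did not pass the test.

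**Figure D5:**
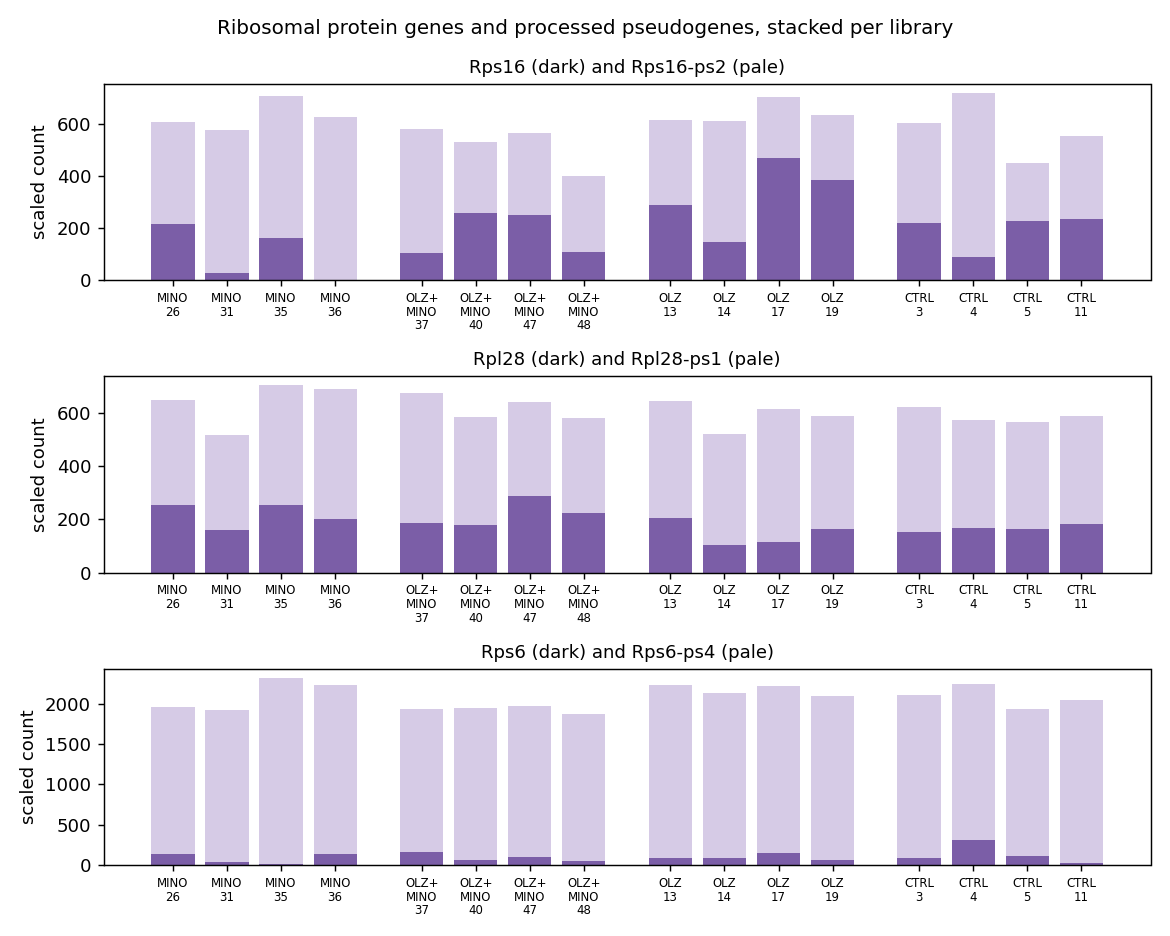
Scaled counts (vertical axes) of Rps16, Rpl28 and Rps6 (dark) stacked on the same bar with their processed pseudogenes (pale), 1 bar per mouse, for MINO, OLZ+MINO, OLZ and CTRL mice. MINO values come from the other table, which was scaled separately. The Rps16 row ranges from 0 in MINO mouse 36 to 470 in OLZ mouse 17, while the sum with Rps16-ps2 ranges from 400 to 719.

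Summed in this way, 31 of 74 members fell and none rose, 22 of them among the 25 above, against 6.45% of all genes that fell. The additional members were Rpl5, Rpl10, Rpl13, Rpl27, Rpl27a, Rps6, Rps7, Rps16 and Rps28, and those lost were Rpl7a, Rpl23a and Rplp1. The counts by shared sequence were made without summing, on the 25 members above. Among members with under 25% of their 50-base stretches shared with other genes' transcripts, 9 of 24 fell, among those with at least 50% shared 9 of 18, and 7 of 32 in between. The row written RPL24 had 668, 681, 740 and 734 scaled counts in OLZ+MINO mice and 781, 911, 900 and 804 in OLZ mice, without overlap (-0.26 ± 0.10, limma adjusted p = 0.24). The row named Rpl24 had 1052, 1110, 1103 and 950 in OLZ+MINO mice and 930, 990, 925 and 1025 in OLZ mice (0.12 ± 0.07, limma adjusted p = 0.47). With the first in place of the second, and rows not summed, 26 members fell.

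Without summing, of the 35 members with a pyrimidine run in the window 12 fell (median -0.17), and of the 19 without one 5 fell (median -0.18). The 19 include Rpl24, whose promoter window (chr16:55966265-55966294) lies outside the gene of its counted row, Zbtb11, which starts at 55973883. That row was not called, whereas the RPL24 row fell (-0.26 ± 0.10, limma adjusted p = 0.24). Of the 20 members with no promoter entry, 8 fell (median -0.17).

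The number of members that fell depended on single libraries. It was 2 without OLZ mouse 13 (Rpl14 and Rpl6), 7 without OLZ+MINO mouse 40, 8 without OLZ+MINO mouse 48, 11 without OLZ mouse 17 and 14 without OLZ mouse 14. In the same fits the share of all genes that fell was 0.701%, 2.37%, 2.07%, 5.03% and 2.98%, in that order, and the median member stayed between -0.15 and -0.20. Rpl14 passed the threshold of 0.3 without any one of these mice.

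Cell type markers moved in the same comparison. The summed scaled count of 10 oligodendrocyte markers was 30595 to 45765 in OLZ+MINO mice and 22253 to 29822 in OLZ mice, and 5 of them rose. That of 9 neuron markers was 25907 to 35997 in OLZ+MINO mice and 21171 to 26571 in OLZ mice, and 6 rose. Tanycyte markers summed to 2131 to 3489 in OLZ+MINO mice and 3669 to 5570 in OLZ mice, and 6 of 9 fell. Microglia markers summed to 1709 to 2044 in OLZ+MINO mice and 2210 to 2356 in OLZ mice, and 4 of 9 fell. None of these lists had a marker at 0 in a whole group. Of the hypothalamic neuron markers 3 of 10 fell (Agrp, Pomc and Avp), with sums of 824 to 9756 in OLZ+MINO mice and 6175 to 9308 in OLZ mice. Of 8 astrocyte markers 2 fell (Gfap and Slc1a3), while 5 were above 0, with a median of 0.06. Their sums overlapped, at 28172 to 30896 in OLZ+MINO mice and 26637 to 33411 in OLZ mice. No endothelial, ependymal, meningeal or erythroid marker passed the test. Of 8 meningeal and fibroblast markers 7 were below 0, with a median of -0.53. They summed to 1136 and 1413 in OLZ mice 13 and 19, and to 412 and 297 in OLZ mice 14 and 17. In OLZ+MINO mice they summed to 287 to 567. The part of these shifts in the lower ribosomal protein signal was not tested.

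Related genes of the translation machinery were read in the same fit. Of 6 measured genes listed as ribosomal proteins or their relatives outside the naming rule 2 fell, Fau, which carries a ribosomal protein fused to a ubiquitin-like domain (-0.27 ± 0.11, limma adjusted p = 0.28), and Gnb2l1, which encodes the scaffold Rack1 (-0.23 ± 0.07, limma adjusted p = 0.17). Rps3a1, a small-subunit gene that neither the rule nor that list takes and that was looked up after the others, had 2267, 2099, 1833 and 1793 scaled counts in OLZ+MINO mice and 2422, 2281, 2268 and 2191 in OLZ mice, and fell with overlap (-0.20 ± 0.08, limma adjusted p = 0.25). Of 16 other genes with known TOP mRNAs 3 fell and none rose, with a median of -0.11. Eef1a1, the elongation factor that brings aminoacyl-tRNA to the ribosome, had 16408, 14317, 15750 and 14105 scaled counts in OLZ+MINO mice and 20136, 18406, 18936 and 18222 in OLZ mice, without overlap (-0.32 ± 0.07, limma adjusted p = 0.063). Eif4b and Eef1g were the others, at -0.23 ± 0.07 and -0.21 ± 0.07 (limma adjusted p = 0.14 and 0.21).

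Eef1a2, the paralog of Eef1a1 used in neurons and muscle, rose: it had 3434, 3593, 3772 and 4399 scaled counts in OLZ+MINO mice and 2964, 3328, 3335 and 3214 in OLZ mice (0.24 ± 0.08, limma adjusted p = 0.17). Of 19 other translation factors, Eef1a2 and Eif1ax rose and none fell. Among 27 nucleolar assembly genes Fbl, the fibrillarin methyltransferase, rose (1.11 ± 0.26, limma adjusted p = 0.083), and Nop58 and Nop10 fell, with a list median of 0.00. The Fbl values were low, at 67, 96, 90 and 56 scaled counts in OLZ+MINO mice and 35, 35, 52 and 22 in OLZ mice. None of 15 genes of mTOR signalling and related control of ribosomal protein synthesis passed the test. Of 76 proteins of the mitochondrial ribosome, a list added after values were seen, 1 rose and 1 fell, with a median of 0.03, and of 24 nuclear respiratory chain genes 2 rose (Cox5a and Atp5b).

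The third comparison set OLZ+MINO mice against CTRL mice. No ribosomal protein gene passed an adjusted p of 0.3 by limma, while 0.025% of all genes rose and 0% fell. The median member was at -0.10, with 53 of 74 below 0, and without adjustment 5 members were lower and 0 higher at p under 0.05 (471 and 518 of all genes). Rpl14 was the only member with OLZ+MINO libraries wholly below CTRL libraries, against 1.47% of all genes, with 1097 to 1284 scaled counts in OLZ+MINO mice and 1290 to 1356 in CTRL mice (-0.21 ± 0.07, limma adjusted p = 0.79). Rpl15 and Rpl13 came next by p, at -0.35 ± 0.12 and -0.27 ± 0.10. Among the higher members Rpl10a, Rpl31 and Rpl28 had the smallest p, at 0.41 ± 0.21, 0.36 ± 0.17 and 0.36 ± 0.20. Summed with their pseudogene rows, Rpl15 and Rpl13 stood at -0.06 ± 0.07 and -0.07 ± 0.07. The sums for Rpl10a, Rpl31 and Rpl28 stood at -0.15 ± 0.08, 0.10 ± 0.09 and 0.07 ± 0.08. These libraries are also those of the comparisons above. Of the companion and marker lists, no gene passed the test in this comparison or in the next.

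The last comparison asked what minocycline did without olanzapine, and no ribosomal protein gene passed the test. None of the 16005 genes did by limma, so that 0% rose and 0% fell. The members' median was 0.07, with 58 of 74 above 0, and at an unadjusted p under 0.05, 5 members were higher and 0 lower (481 and 545 of all genes). Rpl32 had 787, 774, 841 and 819 scaled counts in MINO mice 26, 31, 35 and 36, against 751, 763, 688 and 627 in CTRL mice, and was the only member with MINO libraries wholly above CTRL libraries, against 1.38% of all genes (0.19 ± 0.08, limma adjusted p = 0.77). Rpl14 had 1337, 1378, 1415 and 1475 in MINO mice and 1297, 1336, 1324 and 1364 in CTRL mice (0.07 ± 0.06, limma adjusted p = 0.83).

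Rpl10a and Rpl28 had the smallest p besides Rpl32 among higher members, at 0.60 ± 0.19 and 0.35 ± 0.15, and Rps16, Rps15a and Rpl5 among lower members, at -2.54 ± 1.27, -0.15 ± 0.08 and -0.30 ± 0.18. The Rps16 row had 214, 26, 160 and 0 scaled counts in MINO mice and 221, 88, 227 and 234 in CTRL mice. Summed with Rps16-ps2, it had 609, 576, 707 and 628 in MINO mice and 605, 724, 453 and 557 in CTRL mice (0.12 ± 0.12, limma adjusted p = 0.87). The sums of Rpl10a, Rpl28 and Rpl5 with their pseudogene rows changed by 0.00 ± 0.10, 0.10 ± 0.10 and -0.04 ± 0.06. The minocycline effects with and without olanzapine come from separately scaled tables and were not tested against each other.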

How the data were processed

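Hypothalamic total RNA was sequenced from 16 mice, 4 per group. The submitters' processing notes name Bowtie2, RSEM, limma and build mm9, without versions. The deposited signal values are counts that the authors scaled per library and rounded; the scaling method is not stated, the 2 tables were scaled separately with the same CTRL libraries in each, and the authors' group means, fold changes and false discovery rates in the tables were not used. The log2 of each value plus a pseudocount of 1 was tested with limma 3.58.1 (R 4.3.3) with an intensity trend, 1 fit per table, with Benjamini-Hochberg adjustment over all genes and calls at 0.3, with 0.05 beside it. Genes needed a group mean of 1; this removed 0, and all 74 members were tested. No count model was used because the values are not raw counts. The pipeline was tested on simulated data. Shared sequence was the percent of 50-base stretches found in other genes' GENCODE vM21 transcripts, and pseudogene rows were matched by symbol or by the tables' descriptions. Named members were up to 6 per direction by size among calls, or 3 by p where none passed, the 5 highest and lowest per kb, and stalk, paralog and regulatory members; other genes are named where a sum or count turns on them, after their values were seen. Companion lists were those of translation, assembly and cell types named in the text. Members and lists were chosen with earlier results of these data known. Alternatives covered scaling, pseudocount, filter, trend, groups fitted, quality weights, length, threshold and each library left out; 3 more, with pseudogene rows summed, the RPL24 row used or 2 libraries of low quality weight left out, were chosen after seeing the data. The values of 2 members are not reported here, although they are in the counts.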

Additional observations from a re-analysis of the deposited data

Results flagged for a closer look

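For the 31 members named by rule and the summed signal, 5 single libraries stood far from the others of their group by Dixon's criterion, out of 128 groups of 4 examined, of which chance gives about 1 in 20. OLZ+MINO mouse 37 had 1284 scaled counts of Rpl14, against 1097, 1106 and 1106 in the other OLZ+MINO mice. OLZ+MINO mouse 47 had 431 of Rps26, against 485, 485 and 492. MINO mouse 31 had 1034 of Rps15a, against 1115, 1118 and 1127. CTRL mouse 4 had 87 of Rps16, against 220, 226 and 233, and its Rps16-ps2 row was 632, against 382, 225 and 322. OLZ mouse 14 had 59 of Rps27l, against 64, 64 and 65.

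For 5 named members every MINO library lay on one side of the CTRL mean and every OLZ+MINO library on the opposite side of the OLZ mean, and the difference between the minocycline effects was not tested. The log2 fold changes with minocycline alone (MINO over CTRL) and on top of olanzapine (OLZ+MINO over OLZ) were 0.16 and -0.17 for Rpl13a, 0.07 and -0.41 for Rpl14, 0.19 and -0.12 for Rpl32, 0.21 and -0.18 for Rpl41, and 0.47 and -0.37 for Rps27l. Of these only Rpl14 passed the threshold of 0.3, in OLZ+MINO against OLZ mice.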

How the results depend on the processing

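No paired analysis was possible because the groups share no mouse numbers. The direction of the median member was kept in all 4 comparisons under every alternative run, and its value moved by less than the spread between libraries. That spread (pooled SD of library medians, log2) was 0.098, and 0.109 in the table with MINO. It is about as large as the medians of 0.10, -0.10 and 0.07, so outside OLZ+MINO against OLZ mice the criterion was weak. With single libraries left out, the median ran from 0.06 to 0.15 in OLZ against CTRL mice and from -0.22 to -0.15 in OLZ+MINO against OLZ mice. In OLZ+MINO against OLZ mice the number of members called, 26, became 10 without the intensity trend, 1 at a threshold of 0.05 and 8 without CTRL mouse 5 and OLZ+MINO mouse 48, and ran from 3 to 32 with single libraries left out. The share of all genes that fell moved too, from 6.36% to 3.68%, 0.231% and 2.6% in the first 3 of these settings. With single libraries left out it ran from 0.701% to 8.88%. In OLZ against CTRL mice the number of members called, 3, became 5 with quantile normalization, 7 with the total taken without mitochondrial and ribosomal RNA genes, 5 with a minimum mean of 50, 0 without the trend, 6 with only the compared groups, 6 with quality weights, 0 at a threshold of 0.05 and 7 (5 higher, 2 lower) without CTRL mouse 5 and OLZ+MINO mouse 48, and ran from 0 to 7 with single libraries left out. No share over all genes is given beside these counts. Whether the members' calls moved apart from those of all genes was not tested. Rpl5 changed by 0.01 in OLZ+MINO against OLZ mice alone and by -0.21 when summed with its pseudogene rows. With mitochondrial and ribosomal RNA genes left out of the total, the mean sums became 0.779% in OLZ+MINO, 0.9% in OLZ, 0.821% in CTRL and 0.866% in MINO mice, by construction. The median level per kb was 769.8 with the longest transcript instead of 1106. Count models were not run. Depth is unknown, so no counting limits could be given.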
